A study of Mus musculus with 14 samples.

Results

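Malat1, Neat1, Gas5, Snhg1, Pvt1 and Dleu2 are 6 noncoding RNAs chosen by their symbol, and each had 1 row among the 20207 genes listed for the RNA-seq libraries. They were followed in mouse embryo fibroblasts of strain 129/Sv, primary cells that stop dividing or die when DNA damage activates the transcription factor p53. The p53-null (p53-/-) groups held 2 libraries of cells given doxorubicin and 2 of untreated cells. The wild-type groups held 3 libraries of cells given doxorubicin and 3 of untreated cells. Doxorubicin, a DNA-damaging drug, was given at 0.2 µg/ml for 6 h in both genotypes. The design contrasts damaged with undamaged cells in each genotype, and p53-null with wild-type cells in each state. The labels do not say whether replicates are separate embryos or cultures, so the p-values measure the spread between these libraries. Y-linked reads differed between some replicates of a group, as given below, so those replicates did not come from the same cells. Between replicates alike in these reads, the spread may be technical.

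Long noncoding RNAs act as RNA rather than as templates for protein. Malat1 is an abundant nuclear RNA that gathers at splicing speckles, and Neat1 is the scaffold on which paraspeckle nuclear bodies assemble. Gas5 and Snhg1 are snoRNA hosts: their introns are cut into the small nucleolar RNAs that guide chemical modification of ribosomal RNA, while the spliced exons encode no known protein and are degraded quickly by nonsense-mediated decay. Pvt1 lies beside the growth regulator Myc, and Dleu2 carries the microRNAs miR-15a and miR-16-1 in its introns. Neat1 is known as a p53 target in mouse and human cells.

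The sequences where the snoRNA hosts begin are shown because such genes typically start in a run of pyrimidines, a feature they share with ribosomal protein genes. The starts are those of the RefSeq promoter table on build GRCm38.p6, which held 5 starts for 4 of the RNAs (Gas5, Snhg1, Malat1 and Dleu2). Each line gives the plus-strand sequence from 50 bases before the start, with capitals for the unbroken C and T bases that open the transcript.
Snhg1, chr19:8723437-8723536, plus strand: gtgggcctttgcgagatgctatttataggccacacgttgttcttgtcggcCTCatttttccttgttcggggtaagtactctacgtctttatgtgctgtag
Gas5, second listed start, chr1:161035116-161035215, plus strand: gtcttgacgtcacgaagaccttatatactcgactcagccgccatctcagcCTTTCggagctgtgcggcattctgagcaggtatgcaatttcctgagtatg
The second Gas5 start opened with 5 pyrimidines, the first with 0, and the Snhg1 start with 3. A start of C followed by at least 4 pyrimidines was found at 2.51% of the 32851 listed starts and at 17.6% of 74 starts of ribosomal protein genes. How closely the listed starts match the first transcribed base was not tested. The p53 half-site, searched on both strands in the windows of 250 bases before to 50 after the start, matched in 0 of the 5 starts and in 8.36% of all listed starts. At so low a share, 0 of 5 cannot show that these RNAs lack p53 sites. Neat1 and Pvt1 had no listed start and were not searched.

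The microRNAs that Dleu2 hosts are shown because they are its best known products. Their seeds, bases 2 to 8, are in capitals and are identical, and 16 of 22 positions match in all.
mmu-miR-15a-5p: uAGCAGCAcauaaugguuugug
mmu-miR-16-5p: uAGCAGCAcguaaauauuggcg

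Levels are in CPM, the usual depth-normalised unit: whole reads recovered from the deposited log-scale values, divided by the library's total and a scaling factor. Reads per library were 18099501 to 25970157 in p53-null cells and 9767855 to 11770448 in wild-type cells, without overlap, so depth and genotype cannot be told apart. All 12 fibroblast markers had reads in each group, and their summed level was 4825 to 6262 CPM in p53-null and 6530 to 10051 CPM in wild-type libraries. That sum is weighted to S100a4, at 522 and 551 CPM in untreated p53-null and 3350 to 3560 CPM in untreated wild-type libraries. Untreated, 5 of the 12 markers were higher and 1, S100a4, lower in p53-null cells (median 0.57 log2). Of all genes, 32.9% passed the test there. Summed macrophage markers were 45.3 to 57.2 CPM in p53-null libraries. In wild-type libraries they were 29.6 to 138 CPM treated and 59.7 to 293 CPM untreated. Of the 9 such markers tested there 0 passed after doxorubicin (median -0.56 log2), and their part in the results was not tested. In bulk RNA, fewer cells of a type and less RNA per cell cannot be told apart. The second p53-null doxorubicin library had 15 Y-linked and 399 Xist reads, against 136 to 216 and 15 to 29 in the other p53-null libraries, so it stood apart in sex. The wild-type libraries numbered 1 held 166 (untreated) and 147 (treated) Y-linked reads. Those numbered 2 held 0 and 7, and those numbered 3 held 2 and 9. Untreated p53-null libraries held 207 and 216, with 22 and 15 Xist reads, against 82 to 161 Xist reads in untreated wild-type libraries. Sex thus differed in part between the genotypes, and its part in the genotype comparisons was not tested.

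The p53 transcript itself does not check the deletion, because the reads come from RNA 3′ ends, which the deleted part may not include. Trp53 was at 29.9 and 45.6 CPM in doxorubicin-treated and 67.8 and 75.6 CPM in untreated p53-null libraries. It was at 28.8, 23.7 and 43.4 CPM in doxorubicin-treated and 24.1, 25.4 and 19.9 CPM in untreated wild-type libraries. The p53 target Cdkn1a, an inhibitor of the cell cycle, separated the genotypes in every library: it lay between 29.9 and 54.6 CPM in p53-null cells and between 554 and 5052 CPM in wild-type cells.

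Malat1, Neat1, Gas5 and Snhg1 were high enough to test. After doxorubicin in wild-type cells 2 of these 4 passed, Neat1 higher and Snhg1 lower, where 12.5% of all genes passed. In p53-null cells 0 of 4 passed, where 0% of genes did by limma with 2 libraries a group, and 0 by limma-voom, while 1262 of the 11177 genes had an unadjusted p under 0.05. In the difference of responses 0 of 4 passed, where 2.19% of genes did. Between untreated genotypes 2 of 4 passed, Malat1 higher and Snhg1 lower in p53-null cells, where 32.9% of genes did. Between doxorubicin-treated genotypes 1 of 4 passed, Neat1, lower in p53-null cells, where 12.1% of genes did. These comparisons share libraries, so their counts are not independent. The shares of all genes given here and below count both directions. Of all genes, 879 were higher and 515 lower after doxorubicin in wild-type cells. In p53-null cells 2255 were higher and 1419 lower than in wild-type cells untreated, and 635 and 716 after doxorubicin.

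Neat1 rose after doxorubicin in wild-type cells. Its levels were 35.0, 50.1 and 126 CPM in doxorubicin-treated wild-type libraries, against 13.8, 13.2 and 13.3 CPM in untreated wild-type libraries. The groups did not overlap, as for 28.9% of genes, the untreated libraries lay almost on one level, and the third treated library stood well above the other two. The fitted change was 2.13 ± 0.40 (log2, SE), a 4.38-fold rise on the log2(CPM + 0.5) scale, with an adjusted p of 0.00829 by limma with Benjamini-Hochberg adjustment over 11177 genes. Without the third treated library it was 1.60, with an adjusted p of 0.00613. The deposited row does not separate the short polyadenylated Neat1 transcript from the long one that builds paraspeckles.

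In p53-null cells Neat1 was at 19.3 and 13.0 CPM after doxorubicin, against 9.44 and 9.81 CPM untreated. These groups did not overlap either, as for 52.7% of all genes tested with 2 libraries a group, and the difference of 0.69 ± 0.49 (log2, SE) did not pass the test (limma adjusted p = 0.621). The 95% interval of that change ran from -0.41 to 1.79. The difference between the responses, p53-null minus wild-type, was -1.44 ± 0.64, with an unadjusted p of 0.0473 and a limma adjusted p of 0.234, which did not pass. Without the second p53-null doxorubicin library the p53-null change was 0.97 and the difference of responses -1.12.

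Between genotypes, Neat1 was lower in p53-null than in wild-type cells when both had received doxorubicin (-1.90 ± 0.45 log2, limma adjusted p = 0.0225). This call rested on both p53-null libraries: without the first the adjusted p was 0.0621, and without the second, which stood apart in sex, the difference was -1.58 with an adjusted p of 0.212. Untreated, the difference of -0.46 did not pass the test (limma adjusted p = 0.447), although both p53-null libraries lay below all 3 wild-type ones, as one or the other direction without overlap held for 64.5% of genes. The order of group means was wild-type doxorubicin (70.5 CPM), p53-null doxorubicin (16.2 CPM), wild-type untreated (13.5 CPM) and p53-null untreated (9.62 CPM). The p53-null doxorubicin libraries spanned the wild-type untreated ones, so these neighbours in the order did not differ beyond their spread.

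**Figure D1:**
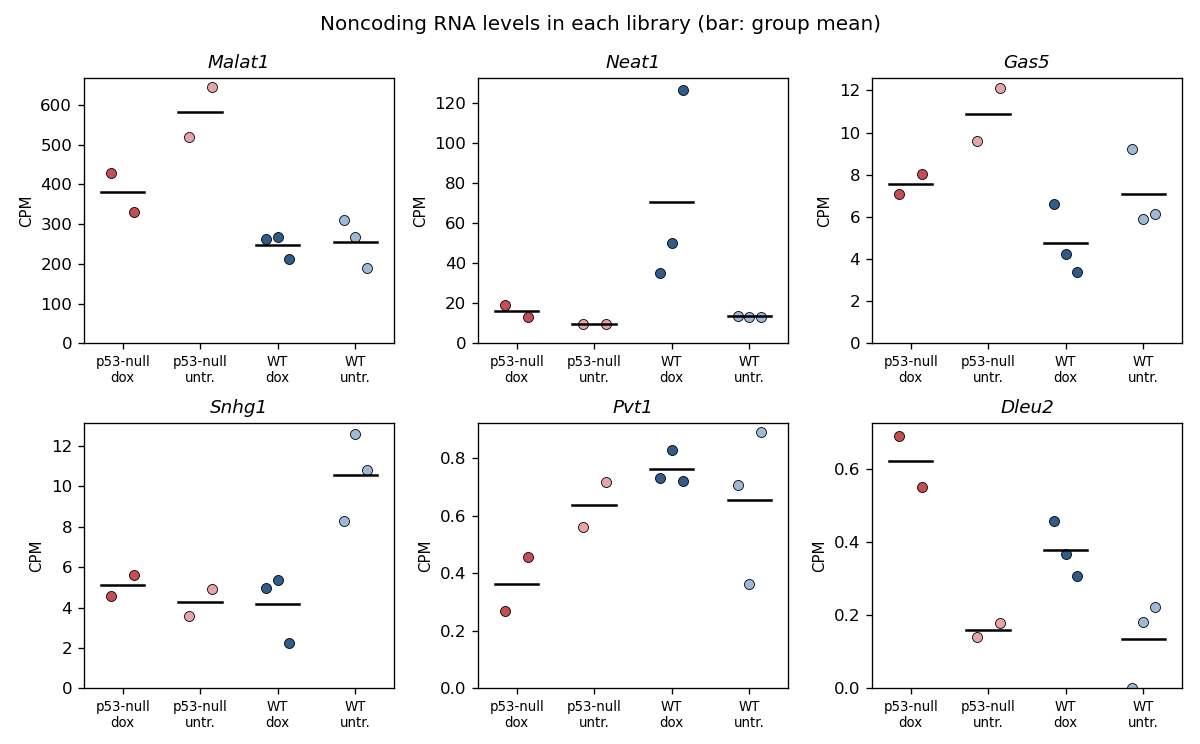
Level of each of the 6 RNAs in CPM (linear axes from 0) in every library, by group; each point is a library and each bar a group mean. Neat1 was at 35.0 to 126 CPM in the 3 wild-type doxorubicin libraries and below 20 in all others, and Snhg1 was at 8.26 to 12.6 CPM in untreated wild-type libraries and below 6 in all others.

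Frmd8, a gene for a membrane-associated FERM domain protein, is the protein-coding neighbour of Neat1 within 20 kb in RefSeq. It was at 21.6, 35.3 and 22.9 CPM in doxorubicin-treated wild-type libraries, against 8.73, 7.34 and 9.12 CPM in untreated ones. Treated and untreated libraries were fully apart, as for 28.9% of genes, with a change of 1.58 ± 0.26 (log2 and SE, limma adjusted p = 0.00427). In p53-null cells Frmd8 was at 6.80 and 5.20 CPM after doxorubicin, against 6.17 and 5.64 CPM untreated. Its change there was 0.01 (limma adjusted p = 0.992). The difference of responses was -1.57, with a limma adjusted p of 0.0774, and 0.0452 with replicate number as a block. After doxorubicin Frmd8 was lower in p53-null than in wild-type cells (-2.04 ± 0.29 log2, limma adjusted p = 0.0015). Strand of counting is not given in the sources used here, so reads from overlapping or read-through transcripts at the locus cannot be assigned.

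Of the 26 listed paraspeckle proteins, which assemble with Neat1 or its bodies, 24 were tested. In wild-type cells after doxorubicin 0 were higher and 3 lower, where 12.5% of all genes passed. The median change of the 24 was -0.17 against 0.04 over all genes. The 3 that fell were the RNA-binding proteins Rbm14 (-1.03), Ewsr1 (-0.99) and Nono (-0.72 log2), with limma adjusted p of 0.0409, 0.0468 and 0.0473, close to the threshold, and each call was lost in 14 of 22 alternatives, among them all 3 without untreated wild-type library 2 or 3, wild-type doxorubicin library 1 or 3, or either untreated p53-null library. With library size as the only scaling 0 of the 24 passed, and with the replicate block 1 rose and 5 fell. Between untreated genotypes 9 were higher and 1 lower in p53-null cells, where 32.9% of all genes passed. Among the higher were the splicing regulators Hnrnpul1 (2.44 log2) and Hnrnpk (1.08 log2). That count was 1 of 24 without both p53-null libraries numbered 2, 2 without untreated p53-null library 1, 1 without untreated p53-null library 2, 6 without untreated wild-type library 2 and 4 without untreated wild-type library 3. With library size as the only scaling 15 were higher and 0 lower.

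Snhg1 moved opposite to Neat1 in wild-type cells. Its levels were 4.94, 5.35 and 2.26 CPM in doxorubicin-treated wild-type libraries, against 8.26, 12.6 and 10.8 CPM in untreated wild-type libraries. Every treated library lay below every untreated one, and 28.9% of genes were apart in one or the other direction. The change of -1.29 ± 0.34 (log2, SE), to 0.408 of the untreated level, passed the test with a limma adjusted p of 0.0343. The call was sensitive: the change lay between -1.49 and -0.95 in all 22 alternatives, and the call was lost in 10 of them. Those 10 include leaving out wild-type doxorubicin library 1 or 3, untreated wild-type library 2 or 3, or untreated p53-null library 1 or 2 (adjusted p 0.0508 to 0.124). The counts behind it were 22 to 58 reads per treated and 70 to 139 per untreated library.

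In p53-null cells Snhg1 was at 4.57 and 5.63 CPM after doxorubicin, against 3.60 and 4.93 CPM untreated. These overlapped, and the change of 0.24 ± 0.42 (log2, SE) did not pass the test (limma adjusted p = 0.861; 95% interval -0.68 to 1.17). The difference of responses was 1.53 ± 0.54 (p53-null minus wild-type), with a limma adjusted p of 0.155. It was 1.44 without the second p53-null doxorubicin library, and its adjusted p was 0.0671 with the replicate block.

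Without drug, Snhg1 was lower in p53-null than in wild-type cells, with a difference of -1.21 ± 0.38 (log2 and SE, limma adjusted p = 0.0359). Between these groups 64.5% of genes were apart in one or the other direction. The groups did not overlap, but the call was lost in 7 of 22 alternatives, including library size as the only scaling (-0.84, adjusted p = 0.126) and leaving out untreated wild-type library 2 or 3 or either untreated p53-null library (adjusted p 0.0935 to 0.211). After doxorubicin the difference was 0.33, did not pass (limma adjusted p = 0.614), and was -0.017 without the third wild-type doxorubicin library. By group mean the order was wild-type untreated (10.5 CPM), p53-null doxorubicin (5.10), p53-null untreated (4.26) and wild-type doxorubicin (4.18 CPM), and the last 3 overlapped.

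The measured Snhg1 neighbours all had negative fitted changes after doxorubicin in wild-type cells, as Snhg1 did, and none passed the test. Wdr74, a ribosome assembly factor, was at 176, 177 and 130.0 CPM in doxorubicin-treated wild-type libraries, against 244, 227 and 222 CPM in untreated ones. The groups were fully apart, as for 28.9% of genes. The change of -0.54 did not pass the test (limma adjusted p = 0.085) but did with the replicate block (0.0362). Untreated, Wdr74 was lower in p53-null than in wild-type cells (-0.64 log2, limma adjusted p = 0.0374), a call lost in 8 of 22 alternatives. Stx5a, a Golgi membrane fusion protein, spread over 21.1 to 157 CPM in treated and 92.0 to 191 CPM in untreated wild-type libraries. Its change there was -0.83 log2 (limma adjusted p = 0.425). It was lower in untreated p53-null cells, at 14.3 and 21.2 CPM (-2.76 log2, limma adjusted p = 0.0155). That call was lost without either untreated p53-null library (adjusted p = 0.111 and 0.075) or untreated wild-type library 3 (0.0539). Slc3a2, the heavy chain of an amino acid transporter, changed by -0.83 (limma adjusted p = 0.136). Snord22, 1 of the 8 snoRNA genes inside Snhg1 in RefSeq, had 12, 2 and 4 reads in treated and 15, 6 and 15 in untreated wild-type libraries. These overlapped, and the change of -0.79 ± 0.38 (log2, SE) did not pass the test (limma adjusted p = 0.216).

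**Figure D2:**
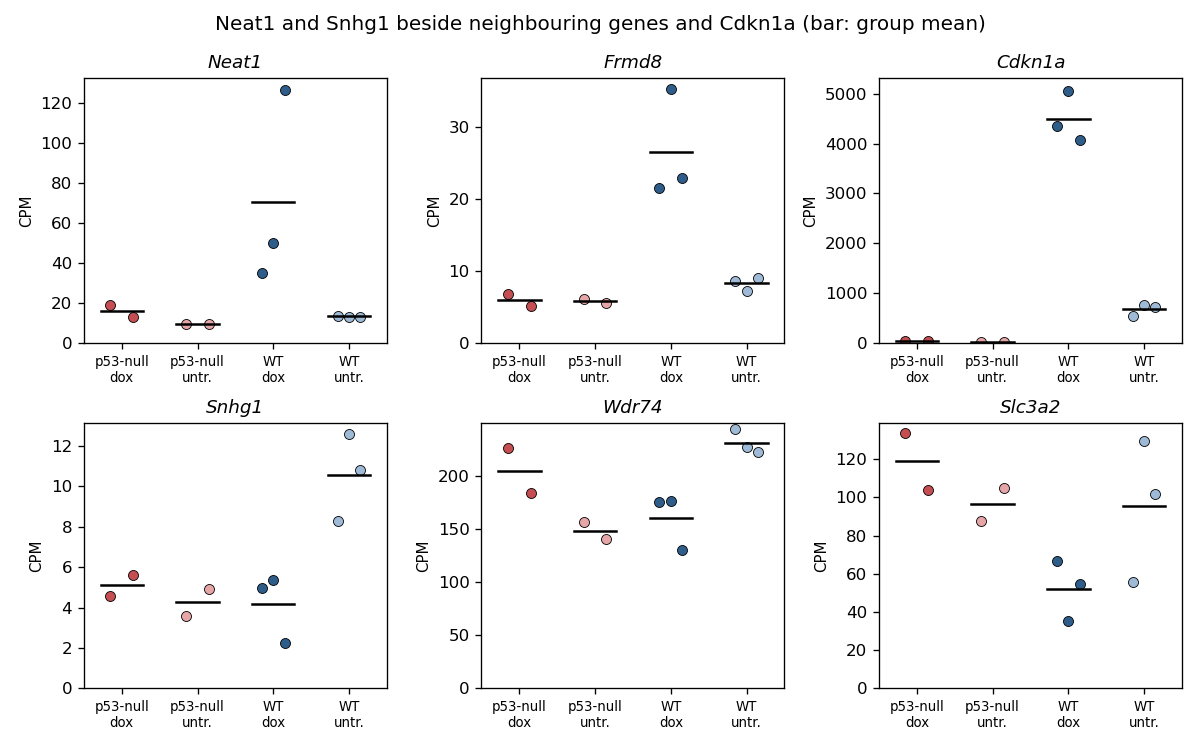
Levels in CPM (linear axes from 0) of Neat1 with its neighbour Frmd8 and of Snhg1 with its neighbours Wdr74 and Slc3a2, beside the p53 target Cdkn1a; points are libraries and bars group means. Frmd8 was at 21.6 to 35.3 CPM in the wild-type doxorubicin libraries and at most 9.12 CPM elsewhere.

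Gas5 did not pass the test in any comparison. Its levels were 7.07 and 8.03 CPM in doxorubicin-treated p53-null libraries, against 9.58 and 12.1 CPM in untreated ones. The p53-null groups did not overlap, as for 52.7% of genes. Gas5 changed there by -0.49 ± 0.37 (log2 and SE, limma adjusted p = 0.64). In wild-type cells it was at 6.59, 4.24 and 3.39 CPM after doxorubicin, against 9.20, 5.89 and 6.12 CPM untreated. One treated library lay above 2 untreated ones, and the change of -0.55 ± 0.30 had a limma adjusted p of 0.278, and 0.095 with the replicate block. The difference of responses was 0.06, with a 95% interval of -1.01 to 1.13. Gas5 read 0.60 higher in untreated and 0.66 higher in doxorubicin-treated p53-null than wild-type cells (log2), neither past the test (limma adjusted p = 0.189 and 0.232). RefSeq places Gas5 over part of Zbtb37, which had at most 5 reads in a library, against 33 to 271 for Gas5.

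Other noncoding snoRNA hosts could be set beside Gas5 and Snhg1: of 19 listed, 9 were tested. In wild-type cells after doxorubicin 2 fell and 0 rose, with a median of -0.47, where 12.5% of all genes passed. 1500012F01Rik, known as Zfas1, was at 15.3, 11.7 and 14.0 CPM after doxorubicin, against 26.6, 45.4 and 40.8 CPM untreated in wild-type cells. Its groups were fully apart, as for 28.9% of genes, with a change of -1.40 ± 0.28 (limma adjusted p = 0.011). 9430008C03Rik, known as Snhg17, was at 28.7, 17.6 and 37.4 CPM after doxorubicin, against 59.2, 60.3 and 60.6 CPM untreated in wild-type cells. It too was lower in every treated library, with a change of -1.16 ± 0.27 (limma adjusted p = 0.0211). Both calls were lost without the second untreated wild-type library (adjusted p = 0.0532 for Zfas1 and 0.0718 for Snhg17), and that of Snhg17 also without untreated wild-type library 3 (0.0718). With the replicate block 2 rose and 3 fell, and 1 higher and 1 lower passed in the difference of responses. In p53-null cells 0 of the 9 passed, with a median of -0.07, and in the difference of responses 0 passed.

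Between untreated genotypes, 2 of these 9 hosts were higher and 2 lower in p53-null cells, where 32.9% of all genes passed. Snhg9 (2.61) and Snhg11 (1.94) were higher, while 2810008D09Rik, known as Snhg20 (-1.76), and Zfas1, listed as 1500012F01Rik (-1.27), were lower (log2; limma adjusted p = 0.00385, 0.0199, 0.0115 and 0.0152). Each of these calls was lost without the first untreated p53-null library (adjusted p = 0.0508, 0.135, 0.117 and 0.147), those of Snhg11 and Zfas1 also without untreated wild-type library 2 (0.0594 and 0.0516) or 3 (0.0637 and 0.055), and that of Snhg11 without untreated p53-null library 2 (0.0844). Without both p53-null libraries numbered 2, 1 was higher and 1 lower.

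**Figure D3:**
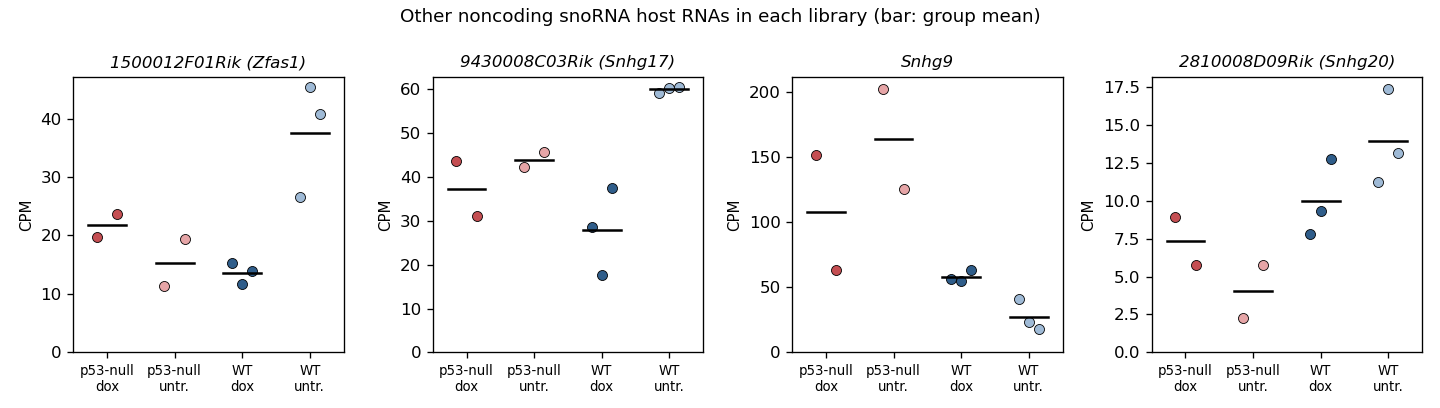
Levels in CPM (linear axes from 0) of 4 other noncoding snoRNA hosts that passed a test; points are libraries and bars group means. Zfas1 and Snhg17 were lower in every doxorubicin-treated than in every untreated wild-type library, and Snhg9 was at 63.0 to 202 CPM in p53-null libraries and 17.7 to 63.2 CPM in wild-type libraries.

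All 35 listed protein-coding snoRNA hosts were tested. In wild-type cells after doxorubicin 1 rose and 7 fell (median -0.06), where 12.5% of all genes passed. Those that fell included the chaperone Hspa8 (-1.45), the ribosome biogenesis factor Wdr43 (-1.13) and Dkc1 (-1.44), the pseudouridine synthase of box H/ACA particles, and Rpl23a rose (1.07 log2; limma adjusted p between 0.000914 and 0.00374). Hspa8 and Rpl23a have near-identical copies elsewhere in the genome, so their counts are uncertain. Of 19 snoRNP proteins and assembly factors, which build the particles around these snoRNAs, 0 rose and 5 fell, beside the same 12.5%. The median of the 19 was -0.55. Nolc1, the nucleolar chaperone of these particles, averaged 76.6 ± 14.1 CPM after doxorubicin and 199 ± 13.9 CPM untreated in wild-type cells (SD, n = 3 each). Nop56, a core protein of box C/D particles, averaged 356 ± 168 CPM after doxorubicin and 874 ± 166 CPM untreated. With the replicate block 1 rose and 10 fell. Dkc1 stands on both lists.

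In p53-null cells 0 of these 35 and 19 genes passed after doxorubicin, where 0 of all genes did. After doxorubicin, 8 of the 19 snoRNP genes were higher in p53-null than in wild-type cells and 0 lower, where 12.1% of all genes passed. Nolc1 was higher by 1.45 and Dkc1 by 1.28 log2 (limma adjusted p = 0.00217 and 0.0112). The Dkc1 call was lost without either p53-null doxorubicin library (adjusted p = 0.0709 and 0.0584). The count of 8 was 5 without the first and 2 without the second p53-null doxorubicin library, which stood apart in sex. Of 77 tested ribosomal protein genes, whose listed starts met the pyrimidine rule above in 17.6%, 3 rose and 0 fell in wild-type cells after doxorubicin. Their median was 0.01, and 12.5% of all genes passed there. Between untreated genotypes 3 were higher and 27 lower in p53-null cells, and 2 of 77 passed without both p53-null libraries numbered 2. Of all 11177 genes 32.9% passed between untreated genotypes in the main fit, 2255 higher and 1419 lower. Scaled by library size alone, 5 ribosomal protein genes were higher and 13 lower. The total was 3 without untreated p53-null library 1, 8 without untreated p53-null library 2, 18 without untreated wild-type library 3, and up to 41 on leaving out other single libraries. With the replicate block 5 rose and 1 fell in wild-type cells after doxorubicin. Rpl23a is on this list too, and whether near-identical copies affect other ribosomal protein counts was not tested.

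**Figure D4:**
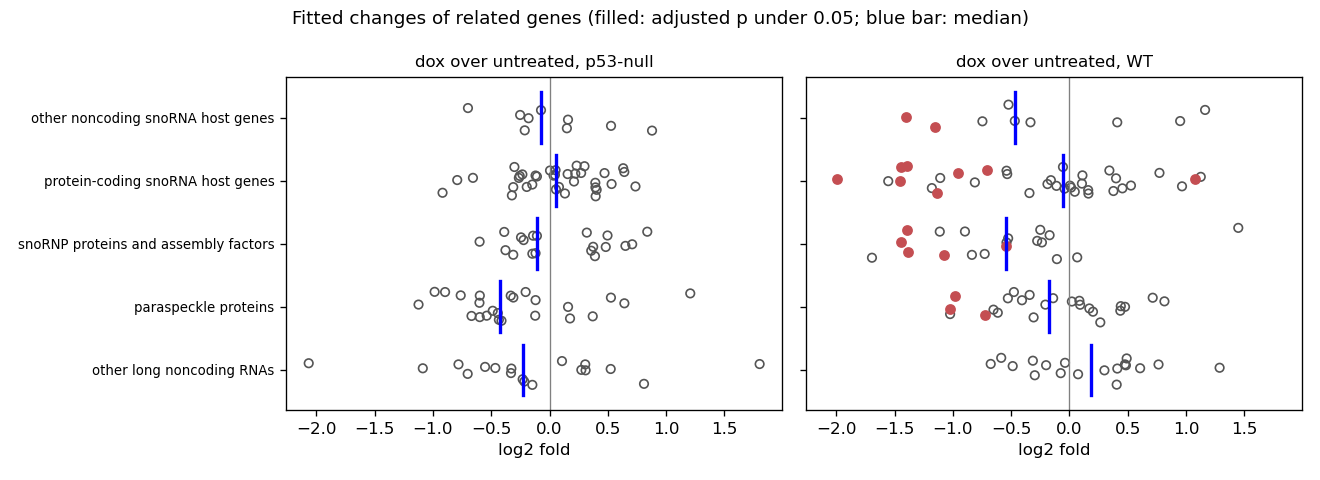
Fitted log2 changes after doxorubicin for the tested genes of 5 related lists in p53-null and wild-type cells; open points did not pass the test, filled points had an adjusted p under 0.05, and blue bars are list medians. No gene of these lists passed in p53-null cells, where 0% of all genes did. The snoRNP list had 5 lower and 0 higher in wild-type cells, where 12.5% of all genes passed.

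Of 24 factors of nonsense-mediated decay, the pathway that degrades spliced snoRNA host RNAs, 1 rose and 1 fell in wild-type cells after doxorubicin. Of all genes 12.5% passed there. Upf3b, which links the exon junction to the decay machinery, changed by 1.52, and Eif4a3, the core of the exon junction complex, by -0.75 (log2; limma adjusted p = 0.0102 and 0.0211). With the replicate block 1 rose and 4 fell, while leaving out untreated wild-type library 1 gave 1 higher and 5 lower. The Upf3b call was kept in all 22 alternatives, and the Eif4a3 call was lost in 5, among them leaving out wild-type doxorubicin library 1 (adjusted p = 0.0662) or untreated wild-type library 2 (0.0878) or 3 (0.101). Upf3b averaged 34.3 ± 7.96 CPM after doxorubicin and 11.9 ± 4.22 CPM untreated (SD, n = 3 each). In p53-null cells 0 passed. Untreated, 6 were higher and 2 lower in p53-null than in wild-type cells, 8 of 24 where 32.9% of all genes passed, and Eif4a3 was among the lower (-1.25 log2, limma adjusted p = 0.00337). Without both p53-null libraries numbered 2, 1 was higher and 0 lower; leaving out untreated p53-null library 1 or 2 left 3 or 2, and leaving out untreated wild-type library 3 left 4.

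Malat1 did not respond detectably to doxorubicin in wild-type cells and was higher in untreated p53-null than in untreated wild-type cells. It was at 429.8 and 331 CPM in doxorubicin-treated p53-null libraries, against 519 and 644 CPM in untreated ones. Both treated libraries lay below both untreated ones, and 52.7% of genes were apart in one or the other direction. Malat1 changed there by -0.61 ± 0.27 (log2 and SE, limma adjusted p = 0.434). In wild-type cells it was at 262, 268 and 212 CPM after doxorubicin, against 310.2, 267 and 189 CPM untreated. These overlapped throughout, and the change was -0.02 ± 0.22, with a 95% interval of -0.52 to 0.47 (limma adjusted p = 0.962). The sign of so small a change flipped under other settings. The difference of responses was -0.59 ± 0.35 (limma adjusted p = 0.355), and -0.36 without the second p53-null doxorubicin library.

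Untreated, Malat1 was 2.31-fold higher in p53-null than in wild-type cells (log2 1.21 ± 0.25 SE, limma adjusted p = 0.00856). The libraries did not overlap, as for 64.5% of genes. The call was lost on leaving out either untreated p53-null library (adjusted p = 0.0513 and 0.0787). After doxorubicin the difference was 0.61 ± 0.25, again without overlap, as for 42% of genes, but not past the test (limma adjusted p = 0.135), and it passed when libraries were scaled by size alone (0.87, adjusted p = 0.0342). That scaling moved the median of all genes between untreated genotypes to 0.43, and Malat1 stood 1.17 above that median. Malat1 ends in a triple helix rather than a standard poly(A) tail, and the part that poly(A) selection plays in its level was not tested.

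**Figure D5:**
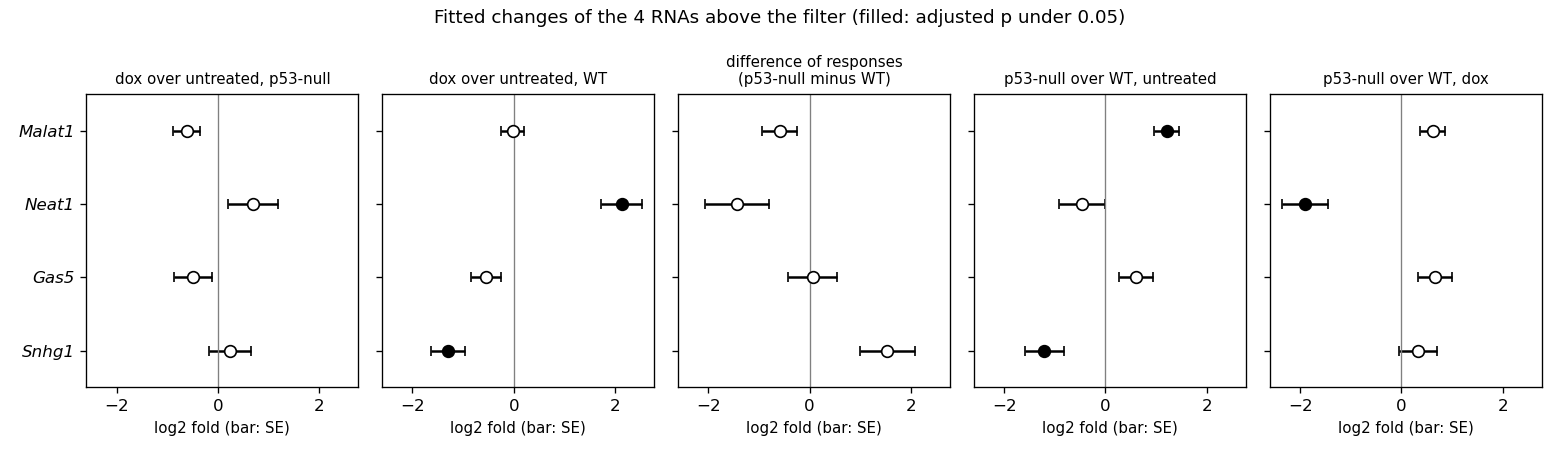
Fitted log2 changes of the 4 RNAs above the filter on low levels, with SE bars, in the 5 comparisons; filled points had an adjusted p under 0.05. Neat1 (2.13) and Snhg1 (-1.29) passed after doxorubicin in wild-type cells, and no RNA passed in p53-null cells or in the difference of responses.

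Pvt1 and Dleu2 were too low for the filter of 1 CPM in at least 2 libraries. Pvt1 had 7 and 14 reads in doxorubicin-treated and 12 and 16 in untreated p53-null libraries. It had 8, 9 and 7 reads in doxorubicin-treated and 6, 4 and 8 in untreated wild-type libraries. At 0.269 to 0.889 CPM its counting intervals were wide: the depth-scaled ratio of treated to untreated was 0.578 in p53-null cells (95% exact interval 0.312 to 1.05) and 1.21 in wild-type cells (0.628 to 2.36). After doxorubicin it was at 0.485 of the wild-type level in p53-null cells (0.257 to 0.91), a difference that did not pass in the fit without a filter (limma adjusted p = 0.215). Myc, its neighbour, averaged 23.8 ± 2.15 CPM in untreated p53-null (SD, n = 2) and 2.96 ± 0.839 CPM in untreated wild-type cells (SD, n = 3). Myc was higher in p53-null cells untreated by 2.84 and after doxorubicin by 1.69 (log2; limma adjusted p = 0.00183 and 0.0197), the second lost without either p53-null doxorubicin library.

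Dleu2 had 18 and 17 reads in doxorubicin-treated p53-null libraries, against 3 and 4 in untreated ones. In wild-type libraries it had 5, 4 and 3 reads after doxorubicin, against 0, 2 and 2 untreated. All treated libraries lay above all untreated ones of their genotype. Among tested genes 52.7% in p53-null and 28.9% in wild-type cells were apart in one or the other direction. The depth-scaled ratio was 3.85 in p53-null cells (95% exact interval 1.69 to 10.3) and 2.72 in wild-type cells (0.823 to 11.6), intervals that cover counting error and not the spread between libraries. In the fit without a filter neither passed (limma adjusted p = 0.248 and 0.114). The count of 0 in the first untreated wild-type library allows up to 3 reads, or 0.354 CPM. That is above the 0.309 CPM of the third treated wild-type library, so the wild-type separation is not secure. Trim13 and Kcnrg, which overlap Dleu2 in RefSeq, had at most 5 and 3 reads in a library. Of 8 genes that host or process miR-15 and miR-16, 0 passed after doxorubicin in either genotype. Untreated, 1 was higher and 2 were lower in p53-null cells, where 32.9% of all genes passed. The higher was Smc4, the host of miR-15b and miR-16-2 (1.43 log2). The lower were the processing factors Dgcr8 (-1.15) and Tarbp2 (-1.07), and limma adjusted p of the 3 was 0.00947 to 0.0274. All 3 calls were lost without either untreated p53-null library, and that of Smc4 also without untreated wild-type library 1 (adjusted p = 0.0582) or 3 (0.0739). With the replicate block 1 of the 8 fell in wild-type cells after doxorubicin, and 1 had a difference of responses above 0 that passed.

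Of 18 other long noncoding RNAs tested, from 39 listed, 0 passed after doxorubicin in either genotype (median 0.19 in wild-type cells). With the replicate block 1 rose and 1 fell in wild-type cells, and 2 had a difference of responses below 0 that passed. Untreated, 6 were higher and 4 lower in p53-null than in wild-type cells, where 32.9% of all genes passed. The 4 lower included Xist (-3.11 log2, limma adjusted p = 0.0153), read above as a sign of sex, so this count is not of genotype alone. Among the higher were Dnm3os, the precursor of miR-199a and miR-214, with 2.22, and Kcnq1ot1, the imprinted antisense RNA of the Kcnq1 domain, with 2.79 (log2; limma adjusted p = 0.000405 and 0.00139). Both were also higher after doxorubicin, Dnm3os by 2.57 and Kcnq1ot1 by 1.48. The Dnm3os call there was kept in all 22 alternatives, and the Kcnq1ot1 call was lost in 5, among them leaving out wild-type doxorubicin library 1 (adjusted p = 0.0614) or 2 (0.0505) or p53-null doxorubicin library 2 (0.216). Without both p53-null libraries numbered 2, 3 of the 18 passed untreated; leaving out untreated p53-null library 1 or 2 left 2 or 3, and leaving out untreated wild-type library 3 left 5.

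The genes whose log2 levels followed each RNA most closely over the 10 libraries, among the genes with a mean of at least 10 CPM, are given as a description, since libraries of a group share genotype and treatment. For Neat1 they were Rnf181 (Pearson r = 0.968), Pla2g12a and Pltp, a phospholipid transfer protein. For Snhg1 they were Cc2d1b (0.973), Mat2a, which makes S-adenosylmethionine, and Eif2b4, a subunit of the translation factor eIF2B. For Malat1 they were Purb (0.977), Edn1, the endothelin precursor, and Eprs, a tRNA synthetase. For Gas5 they were Bnip1 (0.969), Gas1 and Ltv1, and for the low Pvt1 and Dleu2 the closest were Nat13 (0.747) and Wipi2 (0.906).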

How the data were processed

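Poly(A) RNA was sequenced from its 3′ ends, per the labels' protocols. The deposited values are variance-stabilised on a log2-like scale, made by the authors with DESeq on build mm9, per the submitters' processing notes; the aligner, annotation and strand setting were not given there or in the labels. Whole reads were recovered from the steps between values: 99.53% of 22112 distinct values lay within 0.01 of a whole read, and the others held at least 58382 reads. Reads were scaled by TMM to CPM and a gene was kept if 2 or more of the 10 libraries reached 1 CPM (by library size). limma 3.58.1 (R 4.3.3) with trend fitted log2(CPM + 0.5) with 1 mean per group over all 10 libraries, with Benjamini-Hochberg adjustment and a threshold of 0.05, and was tested on simulated data. Same-numbered wild-type libraries deviated together (correlations 0.581, 0.339 and 0.614), so the replicate block pairs them. It also pairs p53-null libraries by number (0.386), where with 2 libraries a group same and other pairs can differ only in sign. Untreated p53-null library 2 had 216 Y-linked and 15 Xist reads and its treated partner 15 and 399, so this pair differed in sex. Between genotypes the block joins libraries of the same number, which the labels do not link. The 6 RNAs and the lists were chosen with earlier results of these data known. Named genes were all 6 RNAs, up to 4 called genes a list by p, RefSeq neighbours and the 3 most correlated genes. The ChIP peak list was not used here, since it names no genes and no annotation of its build was at hand.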

Additional observations from a re-analysis of the deposited data

Results flagged for a closer look

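Over the lists, the fibroblast markers included, 5 genes had doxorubicin responses that differed between genotypes by the test of the difference itself (p53-null minus wild-type, log2, limma). Of all 11177 genes 2.19% did, and whether the lists exceed that share was not tested. Among 35 protein-coding snoRNA hosts 1 was higher and 1 lower, and among 77 ribosomal protein genes 0 and 2, with Rpl23a on both lists. Among 19 snoRNP genes 1 was higher, and among 12 fibroblast markers 1 was lower. On the other lists 0 passed, among them 24 paraspeckle proteins, 24 decay factors and 18 other long noncoding RNAs. No explanation was tested. Hspa8, a snoRNA host, differed by 1.68 (adjusted p = 0.0199): it averaged 5549 CPM treated and 4727 CPM untreated in p53-null cells, against 3780 ± 899 CPM treated and 10152 CPM untreated in wild-type cells. Shq1, an assembly factor of box H/ACA particles, differed by 1.91 (adjusted p = 0.0497), a call kept in 6 of 21 alternatives. Rpl23a, a snoRNA host, differed by -1.99 (adjusted p = 0.00487), kept in 19 of 21. Rps27l differed by -1.80 (adjusted p = 0.0431), kept in 9 of 21. The Hspa8 call was kept in 13 of 21. Counts of Hspa8 and Rpl23a are uncertain, since both have near-identical copies elsewhere in the genome. Fn1, the matrix protein fibronectin and a fibroblast marker, differed by -1.93 (adjusted p = 0.0465), kept in 9 of 21: it was at 271 and 478 CPM treated and 694 and 693 CPM untreated in p53-null cells, against 356, 440.2 and 295 CPM treated and 240.3, 173 and 144 CPM untreated in wild-type cells.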

How the results depend on the processing

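Read depth limits what can be said of Pvt1 and Dleu2, and 2 libraries a group limit the p53-null comparisons. A library left alone in its group was assumed to vary like the others. Neat1 after doxorubicin in wild-type cells passed in all 22 alternatives (1.60 to 2.56, adjusted p 0.00423 to 0.0385). The count of the 6 RNAs passing there was 1 with library size alone, with no filter, with only the groups compared and without both p53-null libraries numbered 2, and 1 to 2 on leaving out single libraries. Genes passing there numbered 1394, with 718 for only the groups compared, 2570 for the replicate block, 761 without both p53-null libraries numbered 2, and 708 to 1433 on leaving out single libraries. In p53-null cells after doxorubicin they numbered 0, with 2 for no filter and 0 to 1 on leaving out single libraries. For the difference of responses they numbered 245, with 120 for upper-quartile scaling, 1043 for the replicate block, 0 without both p53-null libraries numbered 2, and 36 to 300 on leaving out single libraries. Between untreated genotypes they numbered 3674, with 210 without both p53-null libraries numbered 2 and 436 to 4219 on leaving out single libraries. The count of the 6 RNAs there was 1 with library size alone and with no filter, 0 without both p53-null libraries numbered 2, and 0 to 2 on leaving out single libraries. Between doxorubicin-treated genotypes genes passing numbered 1351, with 656 for only the groups compared, 304 without both p53-null libraries numbered 2, and 455 to 1481 on leaving out single libraries. The count of the 6 RNAs there was 2 with library size alone, 0 with only the groups compared and without both p53-null libraries numbered 2, and 0 to 1 on leaving out single libraries. Fewer samples enter the fits that leave libraries out or keep only the groups compared; for the other settings the cause was not tested.

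Library size alone moved the share of calls that were higher to 86.6% from 61.4% between untreated genotypes, to 68.6% from 47% between treated genotypes, and to 8.97% from 23.3% in the difference of responses, where upper-quartile scaling gave 5%. Signs turned for 4 values near 0. Malat1 after doxorubicin in wild-type cells was 0.0135 with library size alone and -0.23 to 0.13 on leaving out single libraries. Frmd8 in p53-null cells was -0.087 with library size alone and -0.16 to 0.19 on leaving out single libraries. The Gas5 difference of responses was -0.082 with library size alone and -0.13 to 0.30 on leaving out single libraries. Snhg1 between treated genotypes was -0.017 to 0.52 on leaving out single libraries. The replicate block changed the call of Wdr74 and Frmd8 as given above, and of none of the 6 RNAs. For the difference of responses, as for Frmd8, the block includes the p53-null pair that differed in sex.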
